A study of Mus musculus with 32 samples.

Results

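Epidermal organoids kept in culture for up to 6 months were set against freshly isolated growing hair follicles. The organoids are clusters of skin keratinocytes from mice of strain Bl/6, taken as bulk cells at passages 23 to 30, within 6 months of culture and 7 days after the last passage, in medium with forskolin, an activator of adenylyl cyclase, and the growth factor Fgf1. They gave 6 libraries. The follicles came straight from the skin of the same strain, were in anagen, the growth phase of the hair cycle, and gave 3 libraries. These 9 libraries of the 32 in the series were picked out by their labels, and the groups to compare were chosen with earlier results of these data known. Another 3 libraries, from a preparation of anagen and telogen follicles together (telogen is the resting phase), were used as a further follicle comparison. The labels do not name the age or number of animals, or how many organoid lines were sampled, and p-values therefore describe the spread among libraries, some of which may be technical.

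The growing follicle is built in concentric layers. Cells divide in the matrix at its base and move up into the inner root sheath, which moulds the hair, or into the cuticle, cortex and medulla of the hair shaft, while the outer root sheath encloses them and is continuous with the basal layer of the epidermis. Each layer is known for its own keratins: the inner root sheath and shaft for keratins that are cross-linked with trichohyalin or with keratin-associated proteins, the outer root sheath and basal epidermis for Krt5 and Krt14. Basal cells are anchored to the basement membrane by hemidesmosomes, in which integrin alpha6 beta4 binds laminin-332, and cells that leave the basal layer of epidermis make Krt1, Krt10 and then the proteins of the cornified envelope.

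Expression is given as CPM, the count of a gene relative to its library's total after edgeR's TMM scaling, in a method (CEL-seq2) that reads the ends of polyadenylated transcripts. Total counts were 412582 to 3127190 in late organoids, 1520797 to 2057589 in anagen follicles and 1385192 to 3351435 in mixed follicles. A gene was called where the quasi-likelihood test gave a Benjamini-Hochberg adjusted p under 0.05. Of 10843 genes tested, 4966 (45.8%) were called between late organoids and anagen follicles, 2298 (21.2%) higher and 2668 (24.6%) lower in organoids, so a call by itself was common. Each count of called list members below is to be read beside these shares. The share of higher calls was 46.3% and became 52.8% with upper quartile scaling, in a range of 44.2 to 54.0% over the alternative settings. The median log2 fold change of all genes was -0.05, in a range of -0.24 to 0.09 over these settings. The late libraries came in 4 sets of files with identical gene lists, called source tables here: replicates 1 and 2, replicate 3, replicates 4 and 5, and replicate 6. All anagen libraries shared another table and all mixed libraries a further one, so culture and source table cannot be told apart. A gene that a file did not list was read as 0, and 196 of the genes called lower were listed in none of the 6 late files, while 105 called higher were listed in no anagen file.

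The regulator and the structural genes of the hair were at or near 0 in late organoids. Hoxc13 (chromosome 15, 102921103 to 102928814), a homeobox factor needed for hair keratin expression, had no count in the 6 late libraries, against 288, 275 and 428 CPM in the 3 anagen libraries, and was at least 840-fold lower. This bound puts organoids at 3 counts among all their scaled counts together and covers counting error only. Tchh (chromosome 3, 93442330 to 93449077), which encodes trichohyalin, the cross-linked protein of the inner root sheath and medulla, had 0 to 5.78 CPM in late organoids (median 3.42), against 5973, 8285 and 14630 CPM in anagen follicles. It was 2971-fold lower (log2 fold change -11.69, SE 0.82, adjusted p = 9.58e-08), and 15 counts in all came from organoids. Both genes separated the groups without overlap, and both were high in mixed follicles too, at 400.3 to 486 CPM for Hoxc13 and 4961 to 6550 CPM for Tchh. In bulk RNA, fewer cells of a type and less RNA per cell cannot be told apart.

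**Figure D1:**
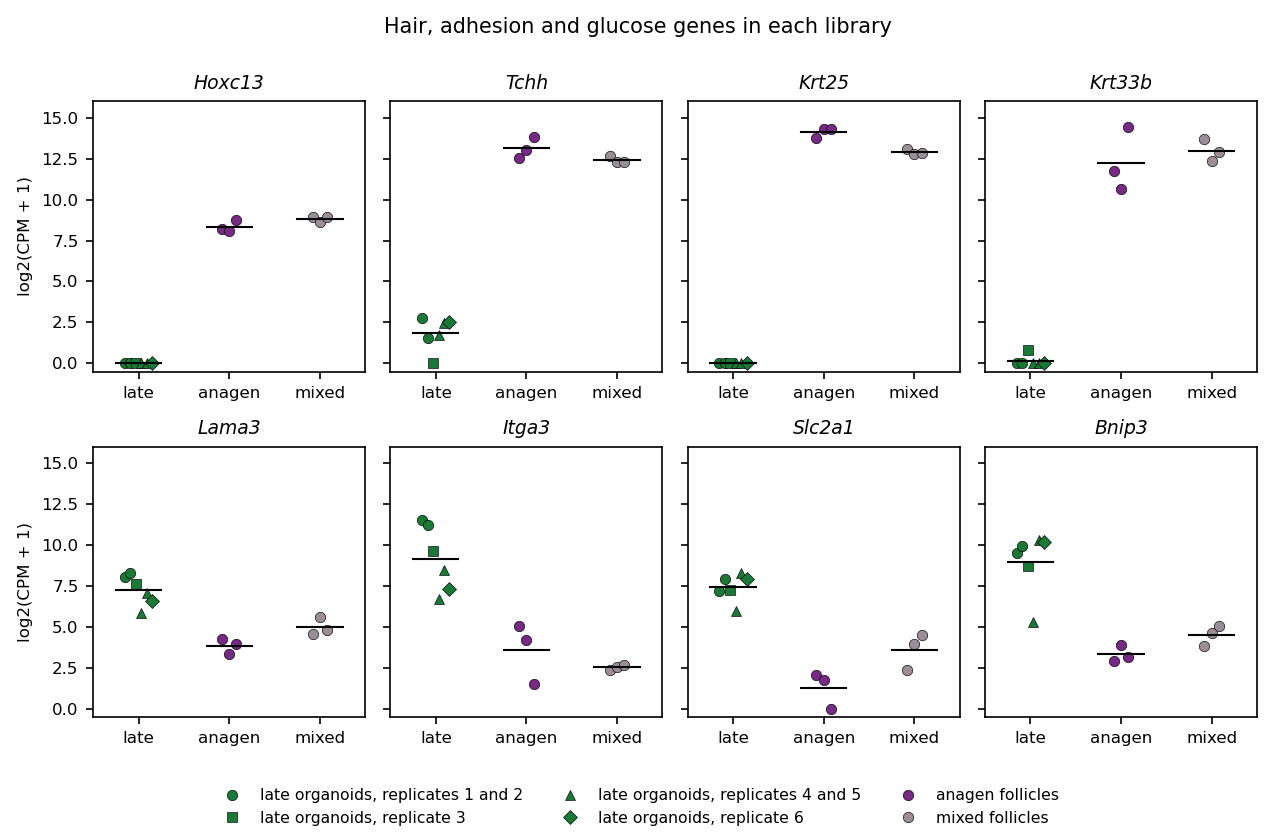
Expression of 8 genes in each library, on a vertical axis of log2(CPM + 1), with late organoids at the left, then anagen and mixed follicles; late organoid markers differ by source table and lines mark group means on that scale. Hoxc13, Tchh, Krt25 and Krt33b lie at or near 0 in the 6 late libraries and high in every follicle library, while Lama3, Itga3, Slc2a1 and Bnip3 lie higher in every late library than in every anagen library.

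All 11 tested genes of the inner root sheath list of 12 were lower in late organoids, and the groups did not overlap for any of them. Among all genes tested, 20.3% were lower without overlap and 13.2% higher. Of these, 7 had no count in organoids. Krt25 (chromosome 11, 99315516 to 99322951), a type I keratin of the sheath, had 0 in the 6 late libraries, against 14100, 20460 and 20700 CPM in anagen follicles, at least 46840-fold lower. Krt71 (chromosome 15, 101733949 to 101743109), a type II keratin of the sheath, also had 0 in the 6 late libraries, against 11970, 13720 and 18080 CPM in anagen follicles, at least 37100-fold lower. Krt73 (chromosome 15, 101793308 to 101802346), a keratin of the sheath cuticle, had 0 in late organoids and 3240 to 9239 CPM in anagen follicles, at least 17370-fold lower. The keratins of the sheath were thus at 0 in every organoid library and high in every follicle library. The gene of the list that stayed well above 0 was Gata3 (chromosome 2, 9857078 to 9890034), a transcription factor of the inner root sheath that interfollicular keratinocytes also make. Gata3 had 44.9 to 269.9 CPM in late organoids (median 117), against 355, 511 and 899.6 CPM in anagen follicles, 4.45-fold lower (adjusted p = 0.000709). The summed level of the list was 50.7 to 279.1 CPM in late organoids and 40480 to 74790 CPM in anagen follicles. Members passed the filter on low counts through the follicle libraries, so the number lower describes the groups and adds no support of its own. The median log2 fold change of the tested members was -13.14, or -11.58 with bounds in place of fitted values for genes at 0, beside -0.05 over all genes.

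The sequence just upstream of these keratin genes holds a short common element, shown here because most of the hair genes share it. The motif searched was TATAAA, the core of the TATA box, on both strands of the 250 bases before each RefSeq start (build GRCm38.p6, every overlapping match counted once per window). It occurred in 55 of 76 windows (72.4%) of the hair structural genes, in 38 of 48 windows of the keratin-associated proteins (79.2%) and in 4063 of 32851 windows of all genes (12.4%). On the gene's own strand and 20 to 40 bases before the start it occurred in 38 of 76 hair windows (50%) and 655 of all windows (1.99%). The last 80 upstream bases are printed 5′ to 3′ on the gene's strand with the motif in capitals, for Krt25 (chr11:99322952-99323031, minus strand), Krt71 (chr15:101743098-101743177, minus), the cuticle keratin Krt32 (chr11:100088270-100088349, minus), Krtap8-1 (chr16:89487953-89488032, minus) and, for contrast, the basal keratin Krt5 (chr15:101712906-101712985, minus), which has no exact match in these bases.
Krt25: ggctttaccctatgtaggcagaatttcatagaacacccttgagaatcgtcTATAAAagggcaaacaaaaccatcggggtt
Krt71: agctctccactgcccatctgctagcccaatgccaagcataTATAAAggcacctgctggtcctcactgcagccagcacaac
Krt32: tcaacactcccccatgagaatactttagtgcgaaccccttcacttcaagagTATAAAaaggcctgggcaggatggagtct
Krtap8-1: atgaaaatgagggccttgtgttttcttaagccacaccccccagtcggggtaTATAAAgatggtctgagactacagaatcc
Krt5: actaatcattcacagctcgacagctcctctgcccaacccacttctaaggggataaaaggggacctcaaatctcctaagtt
A match is a description of letters and not evidence of a bound factor. The windows of the hair genes had a median GC content of 42.6%, against 52.4% over all windows, and the part of base composition in these shares was not tested.

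Keratins and cuticle proteins of the hair shaft were low in organoids likewise. Of 22 listed genes 19 were tested and 18 were lower in late organoids, with a median log2 fold change of -14.1, or -12.18 with bounds. Of the 19, 11 had no count in late organoids and passed the filter through other libraries. They could not come out higher, so the number lower adds no support of its own. Krt32 (chromosome 11, 100080848 to 100088226), a keratin of the hair cuticle, had 0 to 5.67 CPM in late organoids (median 1.25), against 3204, 9478 and 14810 CPM in anagen follicles, 5369-fold lower. S100a3 (chromosome 3, 90560578 to 90602702), a calcium-binding protein of the cuticle, had 0 to 3.37 CPM in late organoids (median 1.33), against 6390, 14070 and 26470 CPM in anagen follicles, 10490-fold lower. Krt33b (chromosome 11, 100023634 to 100029868), a cortex keratin, had 3 counts in late replicate 3 and 0 in the other 5 late libraries, against 3415, 1576 and 21740 CPM in anagen follicles. The anagen to late ratio of Krt33b was 17100 (95% interval 5850 to 82900, counting error only). Krt81 (chromosome 15, 101459061 to 101463751), another cortex keratin, had 0 in late organoids, against 2301, 623 and 21080 CPM in anagen follicles, at least 20350-fold lower. Krt33b and Krt81 have near-identical neighbours, Krt33a and Krt86, so their split between copies is uncertain. Psors1c2 (chromosome 17, 35533201 to 35534647), known from skin and hair cuticle, kept up to 47.6 CPM in late organoids (median 10.7), against 4630, 4835 and 22160 CPM in anagen follicles, 656-fold lower. Krt36, another keratin of the list, had 111 CPM in late replicate 4 and 0 in the other 5, against 193 to 240.1 CPM in anagen follicles and 2595 to 3646 CPM in mixed follicles. Selenbp1, a selenium-binding protein gene on the list, was not called (log2 fold change -0.01).

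The keratin-associated proteins, which embed the keratin filaments of the shaft, were lower in 47 of the 49 tested members of 53, and 44 of the tested members had no count in late organoids. Those 44 passed the filter on low counts through other libraries and could not come out higher. The numbers lower in this paragraph therefore add no support of their own. Krtap26-1 (chromosome 16, 88646824 to 88647796) had 0 in the 6 late libraries, against 5098, 8528 and 62160 CPM in anagen follicles, at least 64240-fold lower. Krtap8-1 (chromosome 16, 89487379 to 89487952) had 0 in the 6 late libraries, against 5716, 1471 and 58530 CPM in anagen follicles, at least 55700-fold lower. Anagen replicate 3 stood apart here, with the highest value of each. The other 4 members among the steepest differences, Krtap22-2, Krtap15, Krtap11-1 and Krtap17-1, had 0 in late organoids and were at least 28250-fold, 25720-fold, 24690-fold and 21440-fold lower. By position, 18 of 19 tested members in the chromosome 11 cluster (99550130 to 99993994), 22 of 23 in the chromosome 16 cluster (88610705 to 89571183), 3 of 3 on chromosome 10 and 4 of 4 on chromosome 7 were lower. Krtap20-2 and Krtap9-1 were not called. The family is made of near-identical copies, and how reads were shared among them is not given in the sources used here. Together with the sheath and shaft lists, 86 named hair genes took 13.0, 14.3 and 37.0% of all counts in the anagen libraries, and 0.0121 to 0.0371% in the late libraries. Of the 86, 67 were listed in no late file. Against mixed follicles, where 39.7% of all genes were called (17.2% higher and 22.5% lower in late organoids), the 11 tested sheath genes, 19 shaft genes and 49 keratin-associated protein genes were each lower in late organoids. With these genes left out of library totals, scaling and tests, 4745 genes were called against anagen follicles.

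Transcription factors of the matrix and its daughters were lower as a group, by less than the structural genes. All 15 members were tested, 15 were lower and the median log2 fold change was -3.72. Msx2 (chromosome 13, 53466884 to 53473074), a BMP-responsive homeobox factor of the matrix, had 8.03 to 25.4 CPM in late organoids (median 20.3), against 362, 587 and 1127 CPM in anagen follicles, 38.1-fold lower (log2 fold change -5.29, SE 0.42, adjusted p = 1.16e-07). Dlx3, a homeobox factor upstream of hair keratins, had 0 to 11.3 CPM in late organoids (median 3.26), against 119, 147 and 226 CPM in anagen follicles. Foxn1, the factor altered in nude mice, had 0 to 6.1 CPM in late organoids (median 2.09), against 95.9, 80.2 and 223 CPM in anagen follicles. None of these 3 overlapped between the groups. Lef1, the nuclear partner of beta-catenin, reached 17 CPM in late replicate 4 and was at most 1.45 CPM in the other late libraries, against 89.6 to 128 CPM in anagen follicles, 36.7-fold lower. Cux1 (chromosome 5, 136248135 to 136567490), a homeobox factor of the sheath, had 19.3 to 87.3 CPM in late organoids (median 48.2), against 356, 374 and 341 CPM in anagen follicles, 7.06-fold lower. The smallest differences were those of factors that epidermis also uses. Vdr, the vitamin D receptor, had 40.8 to 150.1 CPM in late organoids (median 104), against 291, 247 and 274 CPM in anagen follicles, 2.72-fold lower (adjusted p = 0.00123), a call that late replicate 3 alone did not give (adjusted p = 0.0556). Ovol1, a zinc finger factor of differentiating keratinocytes, had 13.7 to 145 CPM in late organoids (median 74.6), against 212, 239 and 538 CPM in anagen follicles, 4.32-fold lower (adjusted p = 0.00883). The Ovol1 call was lost without anagen replicate 3 (adjusted p = 0.0794) and with late replicates 4 and 5, or 6, taken alone (adjusted p = 0.0511 and 0.101).

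Signals of the follicle moved in both directions. Of 20 listed genes of the Shh, Wnt, BMP and Eda pathways 12 were tested, 2 were higher and 6 lower in late organoids, with a median log2 fold change of -1.37. Shh, Ptch1, Gli1 and Hhip were under the filter. Among ligands, Bmp4 had 0 to 7.23 CPM in late organoids (median 0.697), against 49.2, 60.9 and 105 CPM in anagen follicles, 34.3-fold lower. Wnt3 and Wnt11 were lower too, with log2 fold changes of -7.5 and -5.99. Wnt5a, a ligand of the noncanonical Wnt pathway, went the other way, with 37.4 to 185 CPM in late organoids (median 131), against 26.6, 4.82 and 25.1 CPM in anagen follicles, 6.25-fold higher (adjusted p = 0.00119). Among inhibitors, Bambi, a BMP and activin pseudoreceptor, had 0 to 10.7 CPM in late organoids (median 1.46), against 183, 233 and 368 CPM in anagen follicles, 92.5-fold lower. Nkd1, a Wnt target that dampens the pathway, had a log2 fold change of -6.94. Axin2, a general Wnt target, was not called (-1.73). Bmp7 had 21.7 to 89.6 CPM in late organoids, against 86.3, 71.7 and 143 CPM in anagen follicles, and its call (log2 fold change -1.0, adjusted p = 0.0352) was lost in 10 of 23 alternatives, among them those without anagen replicate 3 (adjusted p = 0.243) or with late replicate 1, 2, 3 or 5 left out (adjusted p = 0.0572 to 0.0647).

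Markers of the outer root sheath and bulge, the follicle's stem cell region, split. Of 15 listed genes 13 were tested, 4 were higher (30.8%) and 5 lower (38.5%) in late organoids than in anagen follicles. Against mixed follicles 0 of the 13 were higher and 5 were lower in late organoids. Sox9 (chromosome 11, 112782224 to 112787760), a factor of outer root sheath and bulge cells, had 121 to 3382 CPM in late organoids (median 751), against 50.4, 68.1 and 12.5 CPM in anagen follicles, 30.6-fold higher (log2 fold change 4.92, SE 1.11, adjusted p = 0.00161). Krt17 (chromosome 11, 100256217 to 100261029), a keratin of the outer root sheath that wounded epidermis also makes, had 642 to 1991 CPM in late organoids (median 847), against 66.9, 89.2 and 69.9 CPM in anagen follicles, 13.7-fold higher (adjusted p = 2.69e-05). Barx2, a homeobox factor of the sheath, had 30.4 to 116 CPM in late organoids (median 86.2), against 5.64, 5.43 and 2.69 CPM in anagen follicles, 17.9-fold higher. These 3 did not overlap between the groups. Sfrp1, a secreted Wnt inhibitor, was 19.8-fold higher, from 7.63 CPM in late replicate 5 to 155 CPM in late replicate 1, and the call was lost with late replicate 6 alone (adjusted p = 0.0692). The other tested members of the list were lower or not called. Lgr5, a receptor of lower bulge and germ cells, had 0 in the 6 late libraries, against 55.6, 35.6 and 1.79 CPM in anagen follicles, at least 78.8-fold lower. Lhx2, a LIM homeobox factor of the bulge, also had 0, against 71.3, 25.3 and 13.4 CPM in anagen follicles, at least 93.3-fold lower. Krt75, a keratin of the companion layer between the sheaths, had 1.52 CPM in late replicate 5 and 0 in the other 5 late libraries, against 52.5 to 117 CPM in anagen follicles, an anagen to late ratio of 562 (95% interval 101 to 22200, counting error only). Cd34, a surface marker of the bulge, had 52.6 CPM in late replicate 3 and at most 1.52 CPM in the other late libraries, against 1.61, 1.21 and 0 CPM in anagen follicles, and was not called (adjusted p = 0.0582). It passed with late replicate 3 alone (adjusted p = 1.29e-05) and had the opposite sign without that library (log2 fold change -0.89, adjusted p = 0.511). Krt15 was not called either, at 3.9 to 581 CPM in late organoids and 22.4 to 181 CPM in anagen follicles.

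In the upper follicle and its junctional zone, 3 of 9 listed genes were higher and none lower in late organoids than in anagen follicles. The number lower was 1 without late replicate 5. Late replicates 1 and 2 alone gave 2 higher and 2 lower, replicate 3 alone gave 3 and 1, replicates 4 and 5 gave 3 and 0, and replicate 6 gave 1 and 1. Sostdc1, a BMP and Wnt antagonist, had 9.84 to 72.2 CPM in late organoids (median 22.2), against 2.02, 2.41 and 0 CPM in anagen follicles, 20.3-fold higher (adjusted p = 0.000432) and without overlap. Gata6, a factor of the junctional zone, had 0 to 10.1 CPM in late organoids and no count in anagen follicles, at least 7.79-fold higher. Late replicate 6 had no Gata6 count and overlapped anagen. Plet1, a surface protein of the junctional zone, had 519 CPM in late replicate 3 and 3.9 to 45.8 CPM in the other late libraries, against 10.9, 4.82 and 8.96 CPM in anagen follicles. Its call (log2 fold change 3.67, adjusted p = 0.0208) was lost without late replicate 3 (1.20, adjusted p = 0.0962) and without any 1 of the anagen libraries (adjusted p = 0.0551 to 0.0814). Krt79, the keratin of the infundibulum, was low in both, at 2.27 to 13.7 CPM in late organoids and 2.41 to 10.9 CPM in anagen follicles. It reached 109.9 to 236 CPM in mixed follicles. Against mixed follicles the direction of the list turned, with 0 of the 9 genes higher and 3 lower in late organoids. The summed level was 97.5 to 872 CPM in late organoids, 178.4 to 311.8 CPM in anagen follicles and 1473 to 6078 CPM in mixed follicles.

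The basal keratins Krt5 and Krt14 were higher in late organoids than in anagen follicles and did not differ by the test from mixed follicles. Krt5 (chromosome 15, 101707070 to 101712898) had 7559 to 15160 CPM in late organoids (median 9385), against 1118, 518 and 327 CPM in anagen follicles, 16.4-fold higher (log2 fold change 4.03, SE 0.60, adjusted p = 4.41e-05). Mixed follicles had 5338, 8974 and 10320 CPM of Krt5, within or just below the organoid range (late against mixed 0.38, SE 0.49, adjusted p = 0.561). Between the follicle preparations, where 6.63% of all genes were called (5.42% lower in anagen), the difference was called, with Krt5 lower in anagen than in mixed follicles (-3.65, adjusted p = 0.000911). Krt14 (chromosome 11, 100203162 to 100207548), the partner of Krt5, had 3342 to 15680 CPM in late organoids (median 7067), against 515, 349.6 and 229 CPM in anagen follicles, 23-fold higher (adjusted p = 3.72e-05). Its difference from mixed follicles was 0.35 (SE 0.52, adjusted p = 0.628). Ly6a (chromosome 15, 74994877 to 74998031), which encodes the surface antigen Sca1 of basal keratinocytes, had 81.7 to 831 CPM in late organoids (median 613), against 8.87, 1.81 and 2.69 CPM in anagen follicles, 125-fold higher (log2 fold change 6.85, SE 0.84, adjusted p = 6.74e-06). Ly6a had 151, 299 and 331 CPM in mixed follicles (late against mixed 1.10, SE 0.59, adjusted p = 0.149). Krt17, Barx2 and Sostdc1 behaved alike, called against anagen and not against mixed follicles, and each was called lower in anagen than in mixed follicles (log2 fold changes -2.86, -3.77 and -5.0).

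**Figure D2:**
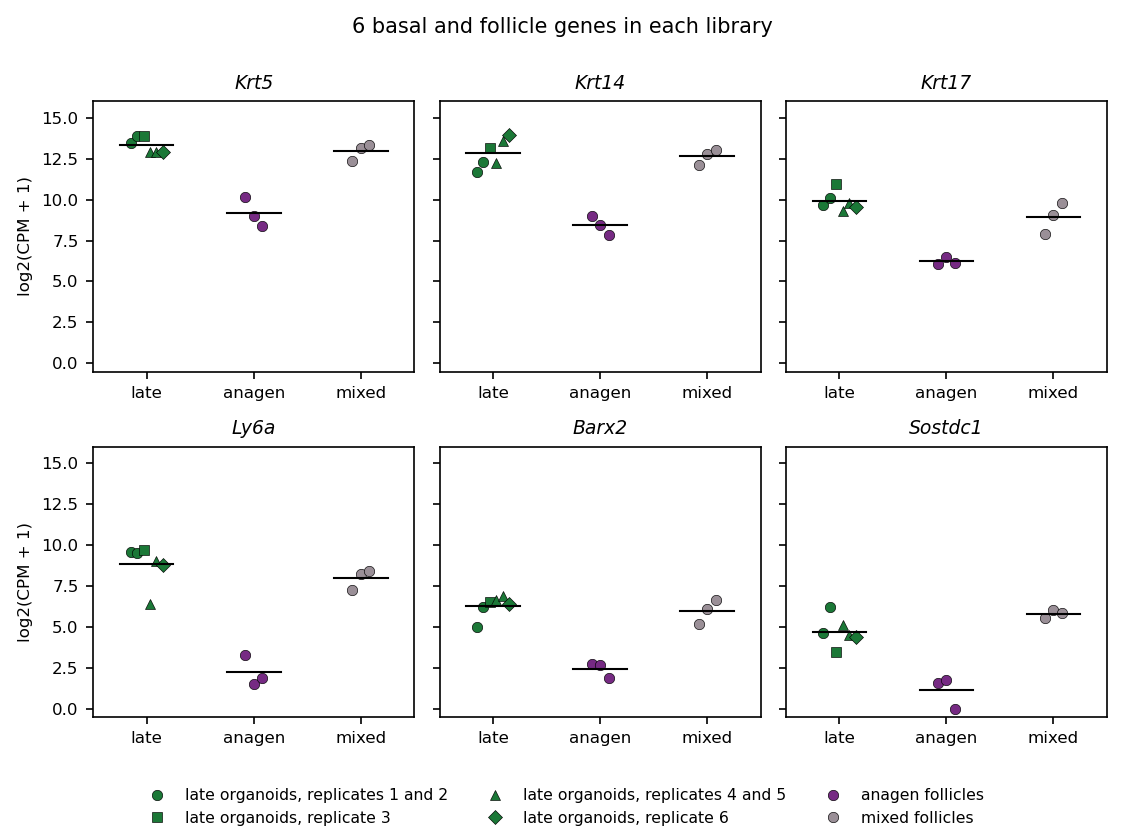
Expression of Krt5, Krt14, Krt17, Ly6a, Barx2 and Sostdc1 in each library on a vertical axis of log2(CPM + 1), with late organoids at the left, then anagen and mixed follicles; late organoid markers differ by source table and lines mark group means on that scale. In each panel the late libraries lie above the 3 anagen libraries, and the mixed libraries lie within the range of the late ones or somewhat below it.

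Beyond the keratins few basal genes were called. Of 16 basal keratinocyte genes, all tested, 4 were higher and 1 lower in late organoids, with a median log2 fold change of 0.95, and 8 were higher without anagen replicate 1. The higher ones were Krt5, Krt14, the desmosomal cadherin Dsg3 (2.80) and Cav1, the coat protein of caveolae. Cav1 had 23.8 to 382 CPM in late organoids (median 117), against 12.1, 7.23 and 7.17 CPM in anagen follicles, 18.5-fold higher. Trp63, the master factor of stratified epithelia, had 29.5 to 66.3 CPM in late organoids (median 47.9), against 50.8, 27.7 and 7.17 CPM in anagen follicles, and was not called (adjusted p = 0.215). Fgfr2, a receptor for Fgf1 among other ligands, had 16.3 to 81.7 CPM in late organoids (median 22.2), against 99.6, 50.6 and 60 CPM in anagen follicles. The Fgfr2 call (log2 fold change -1.12, adjusted p = 0.0475) was lost in 16 of 23 alternatives, among them the removal of any 1 anagen library and of late replicate 1, 2, 3, 5 or 6 (adjusted p = 0.0507 to 0.238).

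Among genes of adhesion to the basement membrane more were higher than lower in late organoids. Of 21 genes of hemidesmosome and basement membrane, all tested, 10 were higher and 4 lower in late organoids, with a median log2 fold change of 1.22, and each source table of late organoids taken alone gave 9 to 12 higher and 2 or 3 lower. Lama3 (chromosome 18, 12333819 to 12583013), the alpha chain of laminin-332, had 56.7 to 308 CPM in late organoids (median 164), against 18.1, 9.04 and 14.3 CPM in anagen follicles, 12.7-fold higher (log2 fold change 3.64, SE 0.53, adjusted p = 3.29e-05). Lamb3, its beta chain, had 15.9 to 133 CPM in late organoids (median 45.4), against 4.03, 3.01 and 0.896 CPM in anagen follicles, 21.1-fold higher. No late library overlapped an anagen library for either gene.

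The receptors of this laminin followed. Itga3 (chromosome 11, 95044474 to 95076801), the alpha3 integrin, had 104 to 2964 CPM in late organoids (median 571), against 31.8, 17.5 and 1.79 CPM in anagen follicles, 65.5-fold higher (log2 fold change 5.98, SE 1.15, adjusted p = 0.000442). Itga3 was 4.07 to 5.29 CPM in mixed follicles (late against mixed 7.85, adjusted p = 0.000136). Itga6, the alpha6 integrin of hemidesmosomes, had 65.6 to 337 CPM in late organoids (median 104), against 38.3, 16.3 and 6.27 CPM in anagen follicles, 7.48-fold higher. Its partner Itgb4 was 7.89-fold higher and Itgb1, the partner of alpha3, 7.26-fold higher. Both members of each receptor pair were therefore higher in organoids, without overlap. Col17a1 (chromosome 19, 47646344 to 47692094), a transmembrane collagen of hemidesmosomes, had 411 to 1496 CPM in late organoids (median 716), against 84.2, 59.1 and 9.86 CPM in anagen follicles, 16-fold higher. Cd151, a tetraspanin that joins laminin-binding integrins, was 10.6-fold higher. The plakin genes Dst and Plec were not called (0.36 and 0.43). Nid1, which encodes nidogen, had 0 in late organoids and 2.69 to 10.8 CPM in anagen follicles, at least 18.6-fold lower. Frem2 of the Fraser complex also had 0 in late organoids and was at least 8.94-fold lower. Fras1 and Npnt, which encodes nephronectin, were lower too (log2 fold changes -2.77 and -1.89). The number lower was 2 without anagen replicate 1 and 1 without anagen replicate 2.

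**Figure D3:**
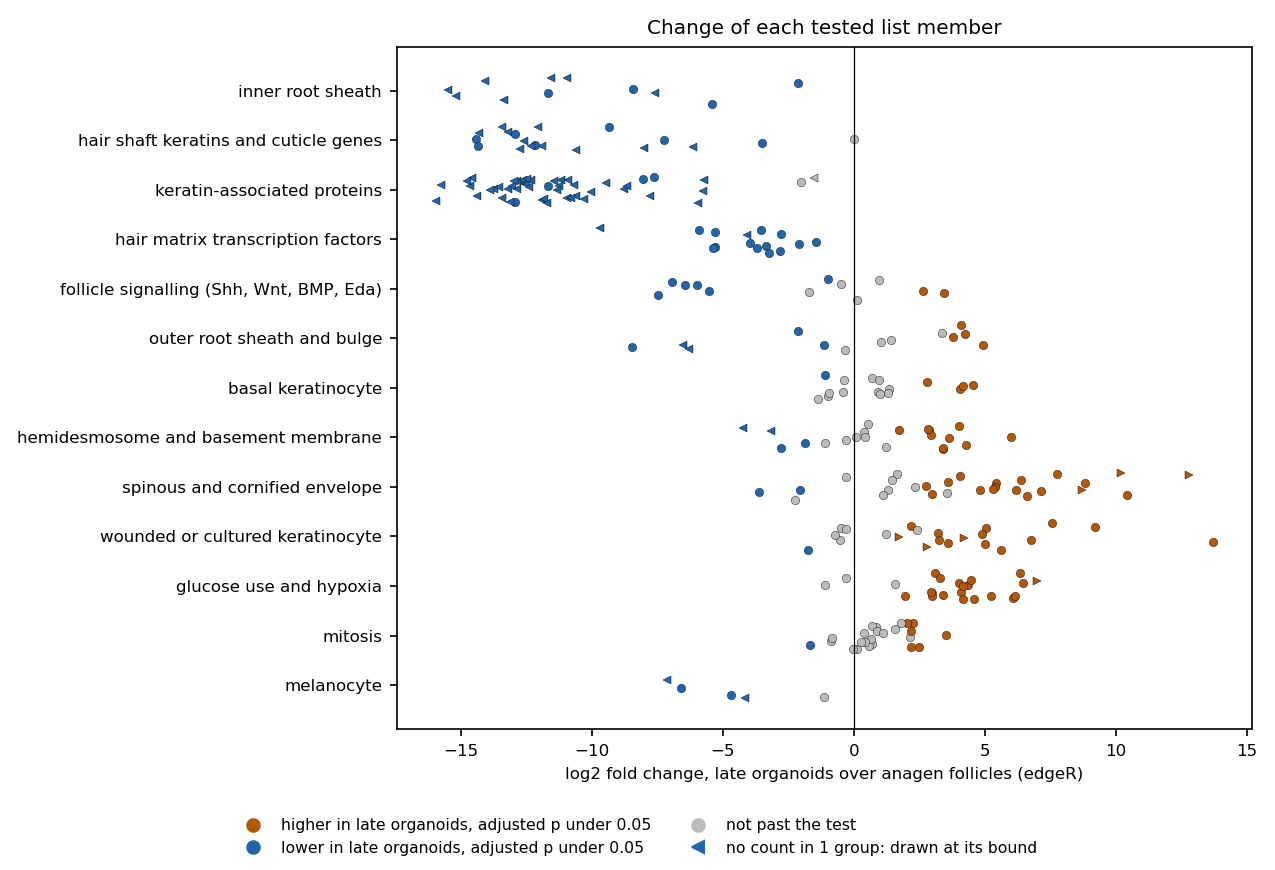
Horizontal axis, log2 fold change of late organoids over anagen follicles for each tested gene, 1 point a gene, in 13 gene lists down the page; called genes are coloured and triangles mark genes with no count in one group, drawn at their bound. Called genes of the inner root sheath, hair shaft, keratin-associated, hair matrix and melanocyte lists all lie left of 0, those of glucose use and hypoxia all right of 0, and the other lists hold called genes on both sides.

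Genes of the cornified envelope were higher on balance, but the late libraries differed from one another by far more than the follicles did. Of 30 listed genes 28 were tested, 18 were higher and 2 lower in late organoids, with a median log2 fold change of 4.42. Their summed level was 844.5 and 458.2 CPM in late replicates 1 and 2, 12830 CPM in replicate 3 and 32920 to 48290 CPM in replicates 4 to 6, against 8045, 11690 and 17670 CPM in anagen follicles. Late replicates 1 and 2 alone gave 3 higher and 14 lower, replicate 3 alone gave 11 and 7, replicates 4 and 5 gave 24 and 2, and replicate 6 gave 24 and 2. The direction of the list thus went with the source table. Krt10 (chromosome 11, 99385254 to 99389364), a keratin of the first suprabasal layer, had 10.1, 1.95 and 21.2 CPM in late replicates 1 to 3 and 5151, 927 and 5404 CPM in replicates 4 to 6, against 122, 50 and 32.3 CPM in anagen follicles. Its call (log2 fold change 4.81, adjusted p = 0.0355) was lost without any 1 anagen library or late replicate 4 or 6 (adjusted p = 0.0514 to 0.109), and Krt10 was lower with late replicates 1 and 2 alone (-3.34, adjusted p = 0.00706) and with 3 alone (-1.63, adjusted p = 0.167). Lor, which encodes loricrin, the main envelope protein, had 7.23, 5.85 and 14.2 CPM in late replicates 1 to 3 and 5441, 904 and 2857 CPM in replicates 4 to 6, against 6.05, 9.64 and 5.38 CPM in anagen follicles (log2 fold change 7.75, adjusted p = 0.00471). The Lor call was lost with late replicates 1 and 2 alone (-0.03, adjusted p = 0.988) and with replicate numbers as a block (0.41, adjusted p = 0.59). With late replicate 3 alone the log2 fold change of Lor was 1.07.

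Envelope genes of other kinds were less uniform. Sprr2d (chromosome 3, 92339140 to 92340873), a small proline-rich protein, had 512, 13.7, 6461, 601, 9162 and 7323 CPM in late replicates 1 to 6 and no count in anagen follicles, at least 7029-fold higher. Sprr2f had 9.75 to 4781 CPM in late organoids (median 303) and 1 count in anagen follicles, a late to anagen ratio of 4390 (95% interval 788 to 173000, counting error only). Sprr2 genes are near-identical copies and their counts may be shared. Asprv1, a skin aspartic protease, and Calm4, a calmodulin-like protein of differentiating keratinocytes, were called higher (5.30 and 4.04) but reached at most 7.8 CPM in late replicates 1 and 2, below every anagen library at 42.2 CPM or more for Asprv1 and 102 CPM or more for Calm4. The calls of both were lost without anagen replicate 2 or 3, and that of Calm4 also without anagen replicate 1 (adjusted p = 0.0502 to 0.0886). Sprr1a, another small proline-rich gene, was lower in organoids, with 13.7 to 1551 CPM in late organoids (median 926), against 5485, 9022 and 13380 CPM in anagen follicles, 12.2-fold lower (adjusted p = 0.00397). Tgm1, the transglutaminase that cross-links envelope proteins, had 0 to 58 CPM in late organoids (median 31.4), against 75.4, 98.9 and 190.0 CPM in anagen follicles, 4.32-fold lower. The number lower was 1 without anagen replicate 3.

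Genes known from wounded or cultured keratinocytes were higher in late organoids. Of 25 listed 22 were tested, 15 were higher and 1 lower, with a median log2 fold change of 4.23, or 3.24 with bounds, and 8 to 16 were higher with each source table alone. Their summed level was 1187 to 23160 CPM in late organoids, against 219.7 to 458.8 CPM in anagen follicles and 1306 to 5715 CPM in mixed follicles. Krt6a (chromosome 15, 101689910 to 101694307), a keratin of companion layer and wound edge, had 388 to 7914 CPM in late organoids (median 3533), against 30.6, 103 and 85.1 CPM in anagen follicles, 48.8-fold higher (adjusted p = 0.00172). It was not called against mixed follicles (log2 fold change 0.24, SE 0.94, adjusted p = 0.863). Krt6b (chromosome 15, 101676023 to 101680287), its close copy, had 14.5 and 5.85 CPM in late replicates 1 and 2 and 2404 to 8848 CPM in replicates 3 to 6, and a single count in the anagen libraries, a late to anagen ratio of 18400 (95% interval 3300 to 727000, counting error only). Krt16, the wound keratin, had 5.78 and 7.8 CPM in late replicates 1 and 2 and 411 to 2274 CPM in replicates 3 to 6, against 2.42, 3.01 and 8.06 CPM in anagen follicles. It was not called with late replicates 1 and 2 alone (adjusted p = 0.713). S100a9 (chromosome 3, 90692632 to 90695721), a subunit of calprotectin, had 11.7 to 2392 CPM in late organoids (median 1213), against 0.806, 4.82 and 0 CPM in anagen follicles, 636-fold higher. Tgfa, a ligand of the EGF receptor, was the lower one (log2 fold change -1.76).

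Several genes outside the lists were among the steepest differences toward organoids. Pitx1 (chromosome 13, 55825051 to 55836192), a homeobox factor of hindlimb and oral epithelium, had 123, 335, 258, 534, 735 and 772 CPM in late replicates 1 to 6 and no count in any anagen or mixed library, at least 805-fold higher than in anagen follicles. Ngfr, the low-affinity neurotrophin receptor, had 4.54 to 325 CPM in late organoids (median 102) and 0 in anagen follicles, at least 255-fold higher. Ccl2, a monocyte chemokine, had 56.5 to 1249 CPM in late organoids (median 198) and 0 in anagen follicles, at least 649.8-fold higher. The genes of this paragraph were chosen for groups that did not overlap. With 0 in anagen follicles, that choice required a count in every late library, which therefore adds no support. Slpi, a secreted protease inhibitor, had 11.7 to 6449 CPM in late organoids (median 894) and 0 in anagen follicles, at least 3150-fold higher. Psca, a surface antigen, was at least 532-fold higher, the chemokine Ppbp at least 401-fold and Ltf, which encodes lactoferrin, at least 387-fold. The highest value of Psca, Ppbp and Ltf was in late replicate 3, at 1111, 1186 and 1140 CPM, and in late replicates 1 and 2 they had 1.95 to 26 CPM.

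Genes of glucose use and of the hypoxia response were higher in late organoids, in each source table. Of 25 listed 23 were tested, 20 were higher and none lower, with a median log2 fold change of 4.08, and 19 to 21 were higher with each source table alone. Against mixed follicles 19 were higher. Slc2a1 (chromosome 4, 119108711 to 119137983), the glucose transporter GLUT1, had 62.4 to 309.6 CPM in late organoids (median 196), against 3.22, 2.41 and 0 CPM in anagen follicles, 102-fold higher (log2 fold change 6.43, SE 0.71, adjusted p = 2.43e-06). It was also higher than in mixed follicles, which had 4.07, 14.4 and 21.1 CPM (3.89, SE 0.60, adjusted p = 6.96e-05). Pfkl, a phosphofructokinase subunit, had 54.4 to 296 CPM in late organoids (median 225), against 2.42, 3.62 and 3.58 CPM in anagen follicles, 66.3-fold higher. Pgk1 (chromosome X, 106187100 to 106203699), phosphoglycerate kinase, had 832 to 5338 CPM in late organoids (median 3014), against 137, 141 and 188 CPM in anagen follicles, 20.4-fold higher (adjusted p = 7.46e-06). Pkm (chromosome 9, 59656368 to 59679375), pyruvate kinase, had 2927 to 12930 CPM in late organoids (median 9232), against 404, 398.5 and 341 CPM in anagen follicles, 24.0-fold higher (log2 fold change 4.59, SE 0.57, adjusted p = 8.01e-06). Pgam1, phosphoglycerate mutase, was 16.3-fold higher, Ldha, lactate dehydrogenase, 10.6-fold, Tpi1 9.72-fold and Gpi1 7.9-fold, each without overlap. Slc16a3, the lactate exporter MCT4, had 2.27 to 184 CPM in late organoids (median 39) and 0 in anagen follicles, at least 125-fold higher. Late replicate 4 was the lowest late library for each of these genes. Aldoa, Hk2 and Pfkfb3 were not called (log2 fold changes -1.10, -0.30 and 1.57).

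Targets of hypoxia-inducible factor with other roles were higher too, with late replicate 4 apart. Bnip3 (chromosome 7, 138890836 to 138909519), a mitophagy receptor, had 37.4 CPM in late replicate 4 and 409 to 1243 CPM in the other 5, against 6.45, 13.9 and 8.06 CPM in anagen follicles, 80.1-fold higher (adjusted p = 2.76e-05). Vegfa, the vascular growth factor, had 27.2 CPM in late replicate 4 and 118 to 1088 CPM in the other 5, against 12.5, 30.1 and 23.3 CPM in anagen follicles, 17.9-fold higher. Egln3, an oxygen-sensing prolyl hydroxylase, had 24.9 CPM in late replicate 4 and 538 to 1499 CPM in the other 5, against 38.7, 68.7 and 188 CPM in anagen follicles, 7.91-fold higher. Ndrg1, a stress-response gene, had 69.2 CPM in late replicate 4 and 716 to 5012 CPM in the other 5, against 61.3, 47 and 148 CPM in anagen follicles, 21.8-fold higher (adjusted p = 0.000879). For Vegfa, Egln3 and Ndrg1 late replicate 4 lay within or below the anagen range. Car9, a carbonic anhydrase, had 1.13 to 142 CPM in late organoids (median 15), with 3 counts in anagen follicles, a late to anagen ratio of 48.7 (95% interval 16.7 to 236, counting error only).

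The core of the hypoxia response element was common upstream of these genes and is shown for 3 of them. The letters searched were ACGTG or GCGTG, on both strands of the 250 bases before each RefSeq start (GRCm38.p6). They occurred in 26 of 33 windows of the list (78.8%), against 12679 of 32851 windows of all genes (38.6%) and 10 of 76 windows of hair structural genes (13.2%). TATAAA occurred in 0 of the 33. The last 80 upstream bases are printed 5′ to 3′ with matches of either strand in capitals, for Slc2a1 (chr4:119108665-119108744, plus strand), Bnip3 (chr7:138909507-138909586, minus) and Car9 (chr4:43506946-43507025, plus).
Slc2a1: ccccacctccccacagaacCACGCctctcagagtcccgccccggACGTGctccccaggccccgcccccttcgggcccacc
Bnip3: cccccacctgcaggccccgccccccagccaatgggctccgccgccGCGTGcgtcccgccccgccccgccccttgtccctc
Car9: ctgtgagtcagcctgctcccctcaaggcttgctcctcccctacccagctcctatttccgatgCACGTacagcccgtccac
The windows of the list had a median GC content of 62.8%, against 52.4% over all windows, and the part of base composition was not tested.

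**Figure D4:**
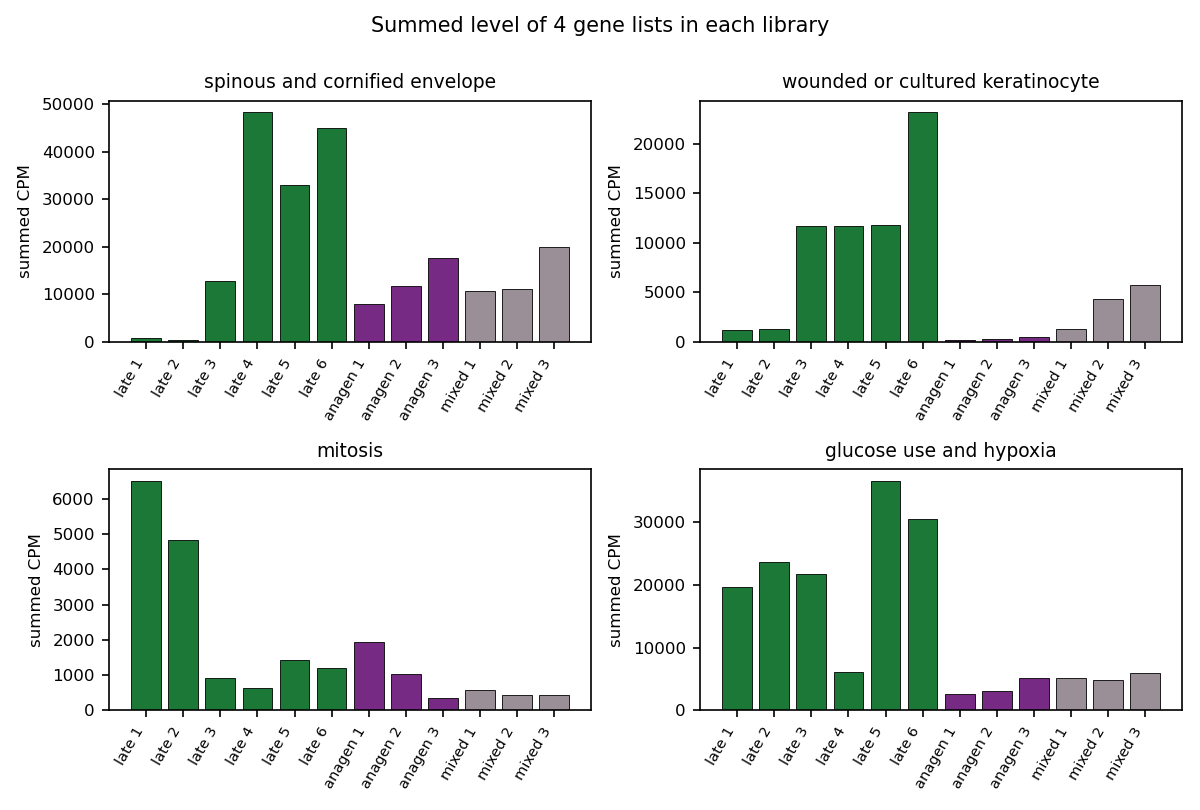
Summed CPM of 4 gene lists (cornified envelope, wounded or cultured keratinocyte, mitosis, glucose use and hypoxia) in each late, anagen and mixed library, 1 bar a library, from 0. The cornified list is lowest in late replicates 1 and 2 and highest in late replicates 4 to 6, the mitosis list is highest in late replicates 1 and 2, and the glucose list is higher in every late library than in every anagen library.

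Proliferation genes depended on the library on both sides. Of 25 mitosis genes 24 were tested, 6 were higher and 1 lower in late organoids, with a median log2 fold change of 0.76. Late replicates 1 and 2 alone gave 16 higher, and each other source table gave 1. Their summed level was 6519 and 4844 CPM in late replicates 1 and 2 and 638.5 to 1440 CPM in replicates 3 to 6, against 1943, 1040 and 336.9 CPM in anagen follicles. The number higher was 12 without anagen replicate 1, 1 without anagen replicate 2 or 3, 2 without late replicate 1 and 10 without late replicate 4. Ube2c, a ubiquitin-conjugating enzyme of mitotic exit, had 53.3 to 327 CPM in late organoids (median 119), against 25.4, 10.2 and 1.79 CPM in anagen follicles, 12-fold higher (adjusted p = 0.000607), and was the called gene of the list whose groups did not overlap. Mki67, which encodes the Ki-67 antigen, had 10.2 to 111 CPM in late organoids (median 41.5), against 283, 174 and 48.4 CPM in anagen follicles. The Mki67 call (log2 fold change -1.69, adjusted p = 0.0353) was lost in 13 of 23 alternatives, among them those without anagen replicate 1 or 2 and without late replicate 3, 4, 5 or 6 (adjusted p = 0.051 to 0.229). Of 26 DNA replication genes, all tested, 3 were higher (11.5%) and 6 lower (23.1%) in late organoids. The number higher was 7 without anagen replicate 1 and 1 without anagen replicate 2 or 3. The number lower was 3 without anagen replicate 1.

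Inhibitors of the cell cycle went both ways. Cdkn2a (chromosome 4, 89274471 to 89294653), which encodes p16 and p19ARF, had 5.85 to 30.2 CPM in late organoids (median 18.1), against 1.21, 1.81 and 0 CPM in anagen follicles, 18-fold higher (adjusted p = 0.000248). Cdkn1b, which encodes p27, had 99.8 to 305 CPM in late organoids (median 215), against 64.9, 51.8 and 40.3 CPM in anagen follicles, 4.11-fold higher. Cdkn1a, which encodes p21, had 408 to 798 CPM in late organoids (median 556), against 590.1, 1587 and 2151 CPM in anagen follicles, 2.48-fold lower (adjusted p = 0.00886), a call lost without anagen replicate 3 (adjusted p = 0.0933). Of 12 tested inhibitors and p53 targets 6 were higher and 2 lower in organoids, and 1 was lower without anagen replicate 3.

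The medium held Fgf1 and forskolin, and the lists of their known responses were mixed. Of 17 FGF receptors and ERK feedback genes 12 were tested, 5 were higher and 3 lower, and 1 was lower without anagen replicate 1. Dusp6, the ERK phosphatase, had 60.1 to 671 CPM in late organoids (median 289), against 76.2, 84.4 and 10.8 CPM in anagen follicles, 5.3-fold higher (adjusted p = 0.00872). The Dusp6 call was lost with late replicate 3 alone (adjusted p = 0.0599) and with replicates 4 and 5 alone (adjusted p = 0.106). Spred1, an inhibitor of Ras signalling, had 45.4 to 171 CPM in late organoids (median 62.9), against 31.4, 29.5 and 16.1 CPM in anagen follicles, 3.39-fold higher, a call lost with late replicates 4 and 5 alone (adjusted p = 0.0597) and with replicate 6 alone (adjusted p = 0.068). Spry1 was lower (log2 fold change -1.77) and Spry2, its relative, higher (2.06). Of 14 targets of cyclic AMP 10 were tested, 3 were higher and 1 lower. Their summed level was 710.0 and 756.6 CPM in late replicates 1 and 2 and 78.87 to 212.0 CPM in replicates 3 to 6. It was 219.7 to 267.1 CPM in anagen follicles. Late replicates 1 and 2 alone gave 4 higher and 1 lower, and replicates 4 and 5 alone gave 1 higher and 2 lower. Pde4b, a phosphodiesterase that degrades cyclic AMP, had 27.3 to 175 CPM in late organoids (median 73.2), against 14.5, 19.3 and 1.79 CPM in anagen follicles, 6.92-fold higher (adjusted p = 0.00166), a call lost with late replicate 6 alone (adjusted p = 0.223). Rgs2, a G protein regulator, had 1.95 to 12.2 CPM in late organoids (median 4.28), against 85.8, 63.9 and 82.4 CPM in anagen follicles, 13.3-fold lower (adjusted p = 8.73e-06). The number of cyclic AMP targets higher was 1 without anagen replicate 1 or 3.

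Stress and lipid genes differed gene by gene. Of 19 NRF2 targets 6 were higher (31.6%) and 4 lower (21.1%) in late organoids, beside 21.2% and 24.6% of all genes tested. The number lower was 2 without anagen replicate 3. Gsta4 (chromosome 9, 78182774 to 78209349), a glutathione transferase that detoxifies lipid aldehydes, had 125.8 to 5906 CPM in late organoids (median 1878), against 4.03, 1.21 and 0.896 CPM in anagen follicles, 1196-fold higher (log2 fold change 10.03, SE 1.5, adjusted p = 4.56e-05). Txnrd1, thioredoxin reductase, had 6.1 to 27.3 CPM in late organoids (median 17.9), against 108, 100.1 and 318 CPM in anagen follicles, 10.6-fold lower. Of 22 cholesterol synthesis genes 6 were higher (27.3%) and 1 lower (4.55%) in late organoids. Late replicates 1 and 2 alone gave 0 higher and 6 lower, and replicates 4 and 5 gave 12 higher and 1 lower. The number higher was 3 without anagen replicate 1. Insig1, the feedback inhibitor of the pathway, had 3.9 to 20.4 CPM in late organoids (median 13), against 198, 212 and 443 CPM in anagen follicles, 22.5-fold lower (log2 fold change -4.43, SE 0.43, adjusted p = 6.53e-07). Fabp4, a fatty acid binding protein, had 0 to 122 CPM in late organoids (median 8.42), against 607, 889.8 and 2116 CPM in anagen follicles, 35.2-fold lower. Elovl3, a fatty acid elongase of sebaceous gland and inner root sheath, had 0 in late organoids, against 158, 309 and 503 CPM in anagen follicles, at least 822-fold lower.

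Other cell types of skin were checked by their markers. Of 10 melanocyte genes 5 were tested and 4 were lower in late organoids, and the summed level was 1.95 to 32.9 CPM in late organoids (median 11.0), against 155 to 266 CPM in anagen follicles. Of the 5, 2 had no count in late organoids, passed the filter through other libraries and could not come out higher. Mitf, the melanocyte master factor, had at most 1.55 CPM in late organoids, against 92.3, 67.5 and 106 CPM in anagen follicles. Dct, a melanin synthesis enzyme, had 0 in late organoids, against 81, 76 and 8.06 CPM in anagen follicles, at least 139.9-fold lower. Mitf and Dct were thus present in every anagen library and at or near 0 in late organoids. The summed list kept 17.55 CPM in late replicate 2 and 32.89 CPM in late replicate 4, and was 242.2 to 458.2 CPM in mixed follicles. The fibroblast list had 2 higher and 2 lower of 9 tested, and the number lower was 4 without late replicate 4 and 1 without anagen replicate 1 or late replicate 3. It had a summed level of 330.1 to 1036 CPM in late organoids, against 63.62 to 438.9 CPM in anagen follicles and 1301 to 2531 CPM in mixed follicles. The higher ones were Sparc, a matrix glycoprotein, at 206 to 904 CPM in late organoids and 22.4 to 73 CPM in anagen follicles, and Fbln1, a fibulin, at 50.3 to 199 CPM in late organoids and 1.79 to 6.85 CPM in anagen follicles. The defining collagens Col1a1 and Col1a2 were lower, the Col1a1 call being lost without anagen replicate 1 (adjusted p = 0.386) and when late replicate 3 was left out (adjusted p = 0.0837). Of the dermal papilla list 3 of 10 were tested, of which 1 was higher and 2 lower in late organoids. Sox2, a factor of dermal papilla and Merkel cells, had 2.89 to 188 CPM in late organoids (median 92.5) and 0 in anagen and in mixed follicles, at least 160.4-fold higher than in anagen follicles. The lower ones were Vcan, the matrix proteoglycan versican, and Rspo3, a secreted enhancer of Wnt signalling. Vcan had 1.13 CPM in late replicate 4 and 0 in the other 5 late libraries, against 23.8, 11.4 and 0 CPM in anagen follicles, an anagen to late ratio of 113 (95% interval 20.3 to 4470, counting error only). Rspo3 had 0 in late organoids, against 1.21, 0 and 1.79 CPM in anagen follicles, at least 2.54-fold lower. The Rspo3 call was lost without anagen replicate 1 or 3 or late replicate 3 (adjusted p = 0.0724 to 0.0855), that of Vcan with late replicates 4 and 5 alone (adjusted p = 0.056) or 6 alone (adjusted p = 0.0806), and the groups overlapped for both genes.

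Markers of immune cells, glands and other tissues were also checked. Of 8 Langerhans cell and class II genes 7 were tested, 2 were higher and 1 lower, and the summed level was 15.25 to 161.8 CPM in late organoids, against 4.22 to 11.69 CPM in anagen follicles and 93.62 to 227.3 CPM in mixed follicles. H2-Ab1, a class II chain that presents antigen, had 1.55 to 95.5 CPM in late organoids (median 14.7), against 2.82, 0.603 and 0.896 CPM in anagen follicles, 18.6-fold higher (adjusted p = 0.0101). H2-Eb1, another class II chain, was 5.9-fold higher, and both calls were lost with late replicates 4 and 5 alone (adjusted p = 0.158 for H2-Ab1 and 0.117 for H2-Eb1), that of H2-Ab1 also with replicate 3 alone (log2 fold change -0.02, adjusted p = 0.992). H2-Aa, the partner of H2-Ab1, had 1.45 CPM in late replicate 1 and 0 in the other 5, against 0.603 to 3.58 CPM in anagen follicles, and its lower call was lost without late replicate 3 (adjusted p = 0.0581). Of 10 sebaceous gland genes 7 were tested, 1 was higher and 3 lower, and the summed level was 132.6 to 232.5 CPM in late organoids, against 526.4 to 940.0 CPM in anagen follicles. Scd1, a fatty acid desaturase, had 51 to 90 CPM in late organoids (median 59), against 279.7, 462 and 386 CPM in anagen follicles, 5.85-fold lower (adjusted p = 5.23e-06). Mgst1, a microsomal glutathione transferase, was the higher one (4.19-fold, adjusted p = 0.00714), a call lost with late replicate 3 alone (adjusted p = 0.396) and with 6 alone (adjusted p = 0.0873). One T cell gene of 2 tested was lower, Thy1, and the summed level of the list was 0 to 3.403 CPM in late organoids and 1.792 to 4.434 CPM in anagen follicles. The Thy1 call was lost without anagen replicate 1 (adjusted p = 0.131) and without late replicate 3 (adjusted p = 0.0843). Of 3 red blood cell genes tested 1 was lower, Alas2 of heme synthesis, and the list summed to 0 to 2.268 CPM in late organoids and 3.584 to 5.426 CPM in anagen follicles. The single tested gene of the muscle list, Mylpf, and of the adipocyte list, Fabp4, was lower too, and these lists summed to at most 10.12 and 122.5 CPM in late organoids, against 11.69 to 18.82 and 607.4 to 2116 CPM in anagen follicles. Summed endothelial markers were 0 to 5.70 CPM in late organoids and 0.403 to 5.43 CPM in anagen follicles. How far these cells contributed to the differences above was not tested.

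A pair of genes with large differences could not be read as expression alone. Gapdh (chromosome 6, 125161715 to 125166467), a glycolytic enzyme with many processed pseudogenes, had 21.5 to 197 CPM in late organoids (median 169.5), against 2.82, 4.22 and 0.896 CPM in anagen follicles, 54.1-fold higher, yet mixed follicles held 3308, 4310 and 5171 CPM. Vmn2r55, a vomeronasal receptor gene, had 31.6 to 60.4 CPM in late replicates 3 to 6 and 938 and 1431 CPM in late replicates 1 and 2, against 2287, 3378 and 4029 CPM in anagen follicles and 9.16 to 19.4 CPM in mixed follicles. Its call (log2 fold change -2.93, adjusted p = 0.0162) was lost without anagen replicate 3 (adjusted p = 0.0502). Gapdh thus differed between the tables of anagen and mixed follicles, and Vmn2r55 between these and also among those of late organoids. How reads of near-identical copies were assigned is not given in the sources used here. Other enzymes of glycolysis named above also have processed copies, and the part of read assignment in their differences was not tested.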

How the data were processed

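Each library has 1 deposited file of counts by gene symbol. Libraries were made by CEL-seq2 and sequenced on a NextSeq500 in paired ends, per the labels' protocols. Per the submitters' processing notes, the authors used BWA 0.6.2-r126 and the mouse genome mm10. How reads were counted, against which annotation, and whether by molecular identifier, was not given in the sources used. Every deposited value was a whole number. Spike-in rows were left out, and genes absent from a file were set to 0. The 6 late and 3 anagen libraries were fitted with the mixed follicles, early organoids with forskolin and Fgf1, and sorted epidermis (17 libraries in 5 groups, 10843 genes), which share 1 estimate of the spread. The fit was by edgeR 4.0.16 under R 4.3.3, with TMM scaling, the filter filterByExpr (minimum count 10, total 15), two-sided quasi-likelihood tests and Benjamini-Hochberg adjustment over all genes at 0.05, the source of each adjusted p. Fold changes are late over anagen unless stated. Ratios with 1 to 3 counts in a group carry exact 95% intervals of counting error. Upper quartile and RLE scaling, DESeq2 1.42.0, other filters, equal depth, genes listed in every file and single source tables were alternatives. So were a fit of only the groups compared, with and without a replicate block, and each library left out. Leaving hair structural genes out of scaling was added after seeing the data.

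The groups, gene lists and tests were chosen with earlier results of these data known. Named genes were Hoxc13, Tchh, Lama3 and Slc2a1; the 10 steepest calls in each direction with mean expression at or above the median and groups that did not overlap (predicted genes and pseudogenes aside); up to 4 called genes of highest mean CPM per list; and a fixed set of Lgr5, Cd34, Mki67, Lor, Krt10, Ly6a, Itga6, Krt14, Krt5, Gapdh and Vmn2r55. Further genes in the text, such as Gata3, Krt36, Krt75, Lhx2, Dlx3, Foxn1, Lef1, Trp63, Krt15, Krt79, Lamb3, Itgb4, Nid1, Frem2, Tgm1, Pfkl, Ldha, Bnip3, Vegfa, Egln3, Car9, Txnrd1 and Cdkn2a, were chosen after their values were seen. Not every named gene is described in the text. Coordinates are whole genes of GENCODE M21 (GRCm38), and upstream bases are from RefSeq. In a simulation of late organoids against anagen follicles over 9379 genes, 59% of genes changed 4-fold, 5% of those changed 2-fold and 0 unchanged ones were called. It changed 200 genes of at least median expression, as many up as down, and held no differences between source tables. In the data 45.8% of genes were called, so the simulation gives no error rate for the comparison itself.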

Additional observations from a re-analysis of the deposited data

Results flagged for a closer look

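In late organoids 14 of 103 named genes with any spread had 1 library far from the other 5 by Dixon's criterion on log2(CPM + 1), where chance alone flags about 1 in 20 groups. Late replicate 4, one of the 2 libraries of its source table, was the low library for Pkm (2930 CPM), Pgk1 (832 CPM), Gapdh (21.5 CPM) and Ly6a (81.7 CPM), and each of these remained above every anagen library there. Late replicate 1 was low for Barx2 (30.4 CPM). Late replicate 3 was high for Cd34 (52.6 CPM). Other cases were a library with a few counts where the other 5 had none: Krt33b in late replicate 3 (0.777 CPM), Alas2, Thy1 and Vcan in late replicate 4 (2.27, 2.27 and 1.13 CPM), Col1a1, H2-Aa and Ppara in late replicate 1 (4.34, 1.45 and 1.45 CPM) and Col1a2 in late replicate 2 (5.85 CPM). A gene with counts in only 1 library is flagged by the criterion in every case. The causes of the flagged values were not tested.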

How the results depend on the processing

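Calls between late organoids and anagen follicles numbered 4966, and 3830 to 5078 with 1 library left out. With late replicate 6 as the only organoid library they numbered 3175, and against mixed follicles 2682, also below the 4308 of the fit of all. At equal depth 3345 were called against anagen follicles and 2809 against mixed follicles. With only the 2 groups compared in the fit, 3334 were called against anagen follicles and 3023 against mixed follicles. Among the calls against anagen follicles lost in that fit were Krt10 (adjusted p = 0.103), Plet1 (0.0731), Asprv1 (0.0608), Calm4 (0.0948) and Vmn2r55 (0.0662). Leaving out 1 library gave 3075 to 4525 calls against mixed follicles and 400 to 662 between anagen and mixed follicles, where 719 were called. Of 119 named genes 118 were called, and 47 changed call in at least 1 of 23 alternatives. Over genes and alternatives, 2399 values kept direction and side of the threshold, 209 lost the call, 7 gained it and 14 no longer had the same sign. With late replicates 1 and 2 alone these were Asprv1 (-3.97), Calm4 (-4.61), Krt10 (-3.34) and Lor (-0.03), and with replicate 3 alone Krt10 (-1.63) and H2-Ab1 (-0.02). Gata6 with replicate 6 alone was 0.0, with no count in either group and so no direction. Cd34, not called, turned with late replicates 1 and 2 alone (-0.32), 4 and 5 alone (-0.65) or 6 alone (-3.81) and without late replicate 3 (-0.89, in a range of -0.89 to 3.9 over each library left out). The labels do not say whether replicate numbers pair the samples. Same-numbered libraries of late organoids and anagen follicles deviated together with correlations of 0.219, 0.075 and 0.067. No reference from differently numbered libraries was computed, so these values do not decide the question. The replicate block, in which only late replicates 1 to 3 have anagen partners, gave 3476 genes called against anagen follicles, 3168 against mixed follicles and 748 between the follicles, and Asprv1 (-1.49), Calm4 (-2.27) and Krt10 (-2.51, adjusted p = 0.0242) turned lower. The cause of these turns was not tested. Depth limits genes near the filter: 3 counts correspond to 0.393 CPM over late and 0.571 CPM over anagen libraries.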
